A study of Mus musculus with 24 samples.

Results

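The 10 genes described here are Vegfa, which encodes a secreted growth factor that acts on blood vessels, and 9 markers of blood endothelium, the cells that line blood vessels. The markers are Pecam1, Cdh5, Kdr, Flt1, Tek, Tie1, Egfl7, Eng and Esam. They were chosen by name, with earlier results of these data known. All 10 were found by Ensembl identifier among the 12615 genes of the deposited table of raw counts from brown adipose tissue (BAT) of mice. VEGF-A, the product of Vegfa, is released by many cell types, brown adipocytes among them, and binds the receptors VEGFR2 (encoded by Kdr) and VEGFR1 (encoded by Flt1) on endothelial cells. VEGFR2 carries most of the growth signal, whereas VEGFR1 binds the ligand tightly with a weaker kinase. Angiopoietins form a parallel system through the receptor TIE2 (encoded by Tek) and its partner TIE1. BAT is densely supplied with capillaries, and exposure to cold is known to increase both Vegfa and the growth of vessels in this tissue.

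BAT from the interscapular region of 24 mice was compared in 4 groups of 6, set by the labelled genotype and the temperature. All mice carried floxed alleles of both TBLR1 and TBL1, the corepressor genes listed as Tbl1xr1 and Tbl1x, and all received tamoxifen, with housing at the test temperature starting 3 weeks after the last injection. BATdKO mice also carried the tamoxifen-inducible recombinase Ucp1CreERT2, which the controls (Cre-) lacked. The Ucp1 promoter is active in brown adipocytes, so the design does not target endothelial cells. Mice raised at 22°C were moved to 30°C for 4 days or were cooled stepwise to 8°C and, by the labels, kept there for 6 days. The paper gives a shorter stay in the cold, and it describes males where the labels describe females. For the age at tamoxifen, the labels have 5 years. The paper has weeks as the unit. Within a group, mice are numbered m1 to m6 here. In the labels the library identifiers of the 30°C mice form one run and those of the 8°C mice another, so that temperature and library series cannot be told apart.

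Libraries held between 699703 and 11527643 counts. The shallowest, Cre- m4 at 30°C, was far below the others, the next of which held 2738613 counts. Levels are given as CPM, the count of a gene scaled to the size of its library with the TMM method. Since the kit reads 1 tag from the 3′ end of a transcript, CPM is not divided by transcript length. The deposited counts are per gene, so isoforms of Vegfa or the soluble form of Flt1 cannot be told apart. The targeted genes did not check the labels in the direction of a deletion. The level of Tbl1xr1 at 8°C was 39.8 ± 4.01 CPM in mice labelled BATdKO and 20.9 ± 2.24 CPM in mice labelled Cre- (SD, n = 6 each), a log2 difference of 0.92 (SE 0.17, adjusted p = 0.0035 with edgeR's quasi-likelihood test). Tbl1x was also higher in the mice labelled BATdKO at 8°C, by 0.39 on the log2 scale (adjusted p = 0.063 with edgeR). The floxed exons are not given in the sources used here, and a 3′ tag outside the deleted part says nothing of the deletion. Directions between genotypes below therefore refer to libraries labelled BATdKO and Cre-.

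A pair of libraries at 30°C went against the other mice of their labelled groups. Which libraries, if any, carry a wrong label cannot be told from these levels. Cre- m6 had 38.6 CPM of Tbl1xr1, whereas the other Cre- mice at 30°C had 16.4 to 24.6 CPM. The library labelled BATdKO m6 had 17.0 CPM, whereas the other BATdKO mice at 30°C had 29.8 to 42.0 CPM. Tbl1x showed the same exchange, with 53.5 CPM in Cre- m6 and 39.7 CPM in BATdKO m6. All 24 libraries were kept in the groups of their labels, and results that rest on these libraries are given with and without both of them.

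To show the sequence in front of genes that are compared below, the RefSeq promoter windows of 6 members are printed, with both annotated starts of Vegfa (build GRCm38.p6, 250 bases before to 50 bases after the annotated start). They are Vegfa, which encodes the ligand, Kdr, Flt1 and Eng, whose levels were higher at 8°C in Cre- mice, and Tie1 and Egfl7, which passed no test. Capitals mark letters of an ETS motif (CAGGAA or CCGGAA, either strand), bound by the ETS factors that many endothelial genes depend on, or of a hypoxia response motif (ACGTG or GCGTG, either strand), bound by hypoxia-inducible factors. The windows lie at chr17:46032328-46032627 and, for its other annotated start inside the gene, chr17:46025114-46025413 (minus strand) for Vegfa, chr5:75978406-75978705 (minus) for Kdr, chr5:147725962-147726261 (minus) for Flt1, chr2:32646345-32646644 (plus) for Eng, chr4:118489800-118490099 (minus) for Tie1 and chr2:26583615-26583914 (plus) for the start of Egfl7 numbered 2 of 3 in genome order.
Vegfa: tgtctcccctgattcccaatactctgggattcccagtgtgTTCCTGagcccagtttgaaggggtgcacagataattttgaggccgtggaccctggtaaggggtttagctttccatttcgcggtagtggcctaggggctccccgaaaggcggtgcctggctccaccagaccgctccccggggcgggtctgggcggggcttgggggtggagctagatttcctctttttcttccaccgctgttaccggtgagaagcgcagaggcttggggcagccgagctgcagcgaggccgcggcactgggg
Vegfa, other start: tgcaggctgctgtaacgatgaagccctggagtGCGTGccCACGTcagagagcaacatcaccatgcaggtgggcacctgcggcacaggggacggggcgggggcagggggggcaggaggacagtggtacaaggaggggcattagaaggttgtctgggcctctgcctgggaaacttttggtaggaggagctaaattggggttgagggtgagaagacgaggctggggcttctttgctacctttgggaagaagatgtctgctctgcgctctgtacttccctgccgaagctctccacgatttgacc
Kdr: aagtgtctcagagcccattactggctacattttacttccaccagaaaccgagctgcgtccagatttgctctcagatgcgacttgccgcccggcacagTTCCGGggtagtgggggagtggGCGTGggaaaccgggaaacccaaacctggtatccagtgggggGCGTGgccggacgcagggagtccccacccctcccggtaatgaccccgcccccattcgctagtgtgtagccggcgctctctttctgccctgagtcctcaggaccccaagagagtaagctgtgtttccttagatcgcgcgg
Flt1: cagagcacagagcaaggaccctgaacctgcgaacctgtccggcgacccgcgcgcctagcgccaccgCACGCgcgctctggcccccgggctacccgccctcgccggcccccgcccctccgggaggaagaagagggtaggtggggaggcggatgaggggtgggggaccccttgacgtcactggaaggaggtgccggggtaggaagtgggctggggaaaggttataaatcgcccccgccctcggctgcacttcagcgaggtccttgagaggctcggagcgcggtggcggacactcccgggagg
Eng: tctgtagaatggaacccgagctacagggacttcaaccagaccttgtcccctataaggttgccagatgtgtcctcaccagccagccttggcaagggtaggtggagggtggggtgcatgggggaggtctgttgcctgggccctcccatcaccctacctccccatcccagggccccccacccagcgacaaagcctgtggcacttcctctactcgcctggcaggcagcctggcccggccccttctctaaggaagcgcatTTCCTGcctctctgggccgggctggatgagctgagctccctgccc
Tie1: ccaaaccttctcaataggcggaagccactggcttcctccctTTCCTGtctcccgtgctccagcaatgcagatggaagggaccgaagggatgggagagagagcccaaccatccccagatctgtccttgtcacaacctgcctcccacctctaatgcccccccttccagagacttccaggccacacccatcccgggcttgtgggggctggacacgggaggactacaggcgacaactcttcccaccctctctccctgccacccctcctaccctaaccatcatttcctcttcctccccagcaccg
Egfl7: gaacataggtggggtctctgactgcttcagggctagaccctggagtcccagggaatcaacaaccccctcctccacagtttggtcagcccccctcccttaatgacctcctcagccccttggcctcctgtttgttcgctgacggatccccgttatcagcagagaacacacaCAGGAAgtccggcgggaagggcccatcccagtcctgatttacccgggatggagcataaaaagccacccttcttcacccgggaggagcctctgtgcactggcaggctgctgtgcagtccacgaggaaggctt
The upstream window of Vegfa held 1 ETS match and 0 hypoxia matches, and that of its other start held 2 hypoxia matches and 0 ETS matches. Eng and Tie1 each held 1 ETS match and 0 hypoxia matches, as did the printed window of Egfl7. In the windows of Egfl7 that are not printed, start 1 held 2 ETS matches and start 3 held 1 hypoxia match. Kdr held 1 ETS match and 2 hypoxia matches, and Flt1 held 1 hypoxia match and 0 ETS matches. These letters are common, since 41.4% of all 32817 RefSeq windows of this length held an ETS match and 43.8% a hypoxia match. The oestrogen-related receptor motif AAGGTCA, searched on both strands, was in 4.72% of all windows and in 0 of the 10 windows found for 7 of the members. A match is only a run of letters, and motifs outside these windows were not searched.

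The level of Vegfa was the highest of the 10 genes and the order of the rest set the scale on which each could be measured. Over all 24 libraries, the mean level was 103 CPM for Vegfa, 89.0 CPM for Kdr, 43.7 CPM for Egfl7, 35.3 CPM for Pecam1 and 29.3 CPM for Flt1. It was 22.0 CPM for Cdh5, 13.8 CPM for Eng, 11.6 CPM for Esam, 9.60 CPM for Tie1 and 5.39 CPM for Tek. Neighbours in this order overlapped in their ranges over the libraries, except Kdr (66.7 to 118.6 CPM) and Egfl7 (26.0 to 56.3 CPM), which did not. Tek rested on 6 to 67 counts per library and Eng on 4 to 165, whereas Kdr rested on 56 to 1096. In a tissue sample, a difference in these levels can reflect more endothelial cells or more RNA per cell, which cannot be told apart.

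At 8°C, 4 of the 10 genes, Pecam1, Kdr, Flt1 and Eng, were higher than at 30°C in Cre- mice, and 1, Kdr, in BATdKO mice, at an adjusted p under 0.1. Of all 12485 genes tested, 9.15% passed this threshold in Cre- mice (5.57% higher at 8°C) and 7.07% in BATdKO mice (3.76% higher at 8°C). The median log2 fold change of the 10 genes was 0.45 in Cre- mice and 0.02 in BATdKO mice, beside medians of -0.02 and -0.0026 over all genes tested. All of the calls among the 10 genes were higher at 8°C, while calls over all genes in Cre- mice were 695 higher and 448 lower (608 and 609 with upper-quartile scaling, under which the 4 genes were also called). The 4 genes moved by similar amounts, between 0.44 and 0.51 on the log2 scale. With all libraries, 0 of the 10 passed the threshold between genotypes or in the interaction, as described below. By annotation (GENCODE, GRCm38), the 4 members without a printed window lie at chr11:106654217-106750628 (Pecam1, minus strand), chr8:104101625-104144511 (Cdh5, plus), chr4:94739289-94874976 (Tek, plus) and chr9:37528078-37538319 (Esam, plus), and all 10 are protein coding.

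Vegfa ranged from 49.1 to 135.8 CPM (median 67.9) in warm Cre- mice and from 65.9 to 128.2 CPM (median 117) in cold ones. In mice labelled BATdKO it ranged from 92.5 to 125.5 CPM at 30°C (median 109) and from 78.4 to 166.9 CPM at 8°C (median 119). In each pair of groups compared, the ranges overlapped. The single highest Cre- mouse at 30°C was m6, with 135.8 CPM, and the other 5 had 49.1, 58.8, 66.8, 69.1 and 72.0 CPM. All 6 mice labelled BATdKO at 30°C lay above those 5 and below m6. How many of all genes part in this way once the highest mouse is set aside was not counted.

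With all libraries, Vegfa passed no test. The difference between 8°C and 30°C was 0.47 on the log2 scale in Cre- mice (SE 0.19, 95% interval 0.08 to 0.87, adjusted p = 0.16 with edgeR) and 0.15 in BATdKO mice (SE 0.19, adjusted p = 0.76). The difference between BATdKO and Cre- mice was 0.51 at 30°C (SE 0.19, 95% interval 0.12 to 0.91, adjusted p = 0.34) and 0.19 at 8°C (SE 0.19, adjusted p = 0.87). These comparisons share groups, so that a low mean in Cre- mice at 30°C enters both larger values.

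The Vegfa result turned on Cre- m6 at 30°C. Without both mice numbered 6 at 30°C, Vegfa was higher at 8°C in Cre- mice by 0.74 on the log2 scale (SE 0.16, adjusted p = 0.0038 with edgeR) and higher in BATdKO than in Cre- mice at 30°C by 0.82 (SE 0.17, adjusted p = 0.007). In BATdKO mice the difference between temperatures was then 0.10 (adjusted p = 0.84), and between genotypes at 8°C it was 0.18 (adjusted p = 0.77). The test of whether the response to temperature differed between genotypes gave -0.64 (SE 0.22, adjusted p = 0.33), which did not pass, and gave -0.33 (SE 0.27, adjusted p = 0.80) with all libraries. Leaving out Cre- m6 at 30°C alone gave 0.74 (adjusted p = 0.0044) between temperatures in Cre- mice and 0.79 (adjusted p = 0.014) between genotypes at 30°C. Vegfa between temperatures in Cre- mice was also called without Cre- m2 at 8°C, at 0.58 (adjusted p = 0.066).

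**Figure D1:**
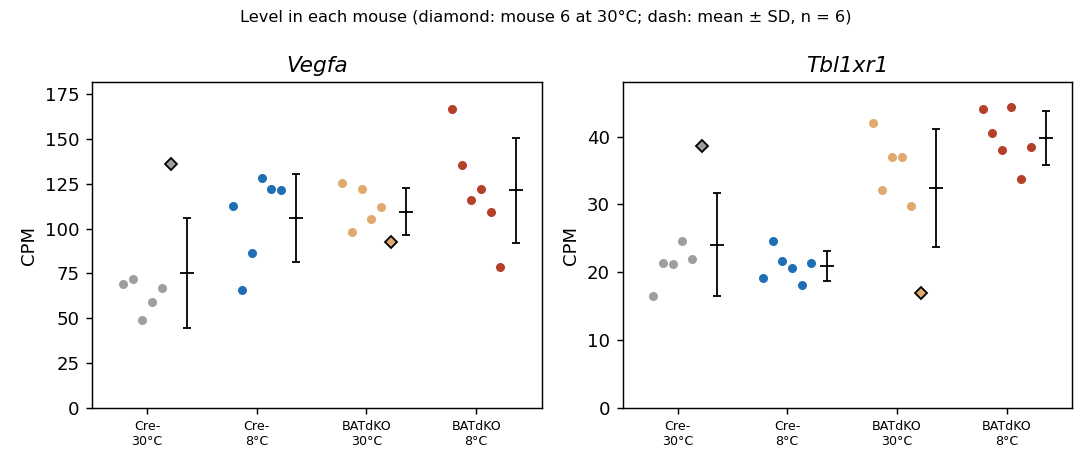
Level in CPM of Vegfa (left) and of Tbl1xr1, a floxed gene (right), on linear vertical axes, with 1 point per mouse in the 4 groups on the horizontal axis, diamonds for mouse 6 of each 30°C group, and a dash with a bar for the mean ± SD of 6 mice. The Cre- diamond lies above the other 5 Cre- mice at 30°C for both genes (135.8 and 38.6 CPM), and the BATdKO diamond lies below its group for both (92.5 and 17.0 CPM).

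The receptors for VEGF-A were both higher in the cold in Cre- mice. Kdr ranged from 72.1 to 80.9 CPM at 30°C (median 77.5) and from 90.1 to 118.6 CPM at 8°C (median 105), so that all 6 cold Cre- mice lay above all 6 warm ones. The rise was 0.44 on the log2 scale, or 1.36-fold (SE 0.08, 95% interval 0.28 to 0.60, adjusted p = 0.0005 with edgeR). Groups without overlap and higher at 8°C were found for 2.19% of all genes tested in Cre- mice and, among the 10 genes, for Kdr and Eng. In BATdKO mice Kdr ranged from 66.7 to 84.2 CPM at 30°C (median 79.2) and from 79.7 to 107.2 CPM at 8°C (median 98.3), and 5 of the 6 cold mice lay above every warm one. The rise was 0.30, or 1.23-fold (SE 0.08, 95% interval 0.14 to 0.46, adjusted p = 0.021). In BATdKO mice 0 of the 10 genes had groups without overlap, beside 1.75% of all genes tested that were higher at 8°C. Both calls for Kdr were made in all 24 fits that left out 1 mouse. Between genotypes, Kdr differed by 0.03 at 30°C (95% interval -0.13 to 0.19) and by -0.11 at 8°C (95% interval -0.26 to 0.05), and its interaction was -0.14 (95% interval -0.36 to 0.09, adjusted p = 0.80).

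Flt1 ranged from 17.2 to 28.1 CPM in warm Cre- mice (median 24.7) and from 21.1 to 43.1 CPM in cold ones (median 35.0). Of the 6 cold mice 5 lay above every warm one, and m2 at 8°C lay within the warm range. The rise was 0.51, or 1.42-fold (SE 0.14, adjusted p = 0.032 with edgeR), and the call was lost without Cre- m3 at 30°C (adjusted p = 0.10) or without Cre- m4 at 8°C (adjusted p = 0.11). In BATdKO mice Flt1 ranged from 21.2 to 30.6 CPM at 30°C (median 27.3) and from 25.1 to 36.2 CPM at 8°C (median 34.1), a difference of 0.25 that did not pass (SE 0.14, adjusted p = 0.38). The interaction was -0.25 (SE 0.20, adjusted p = 0.79), so a difference between genotypes in the response of Flt1 was not shown.

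**Figure D2:**
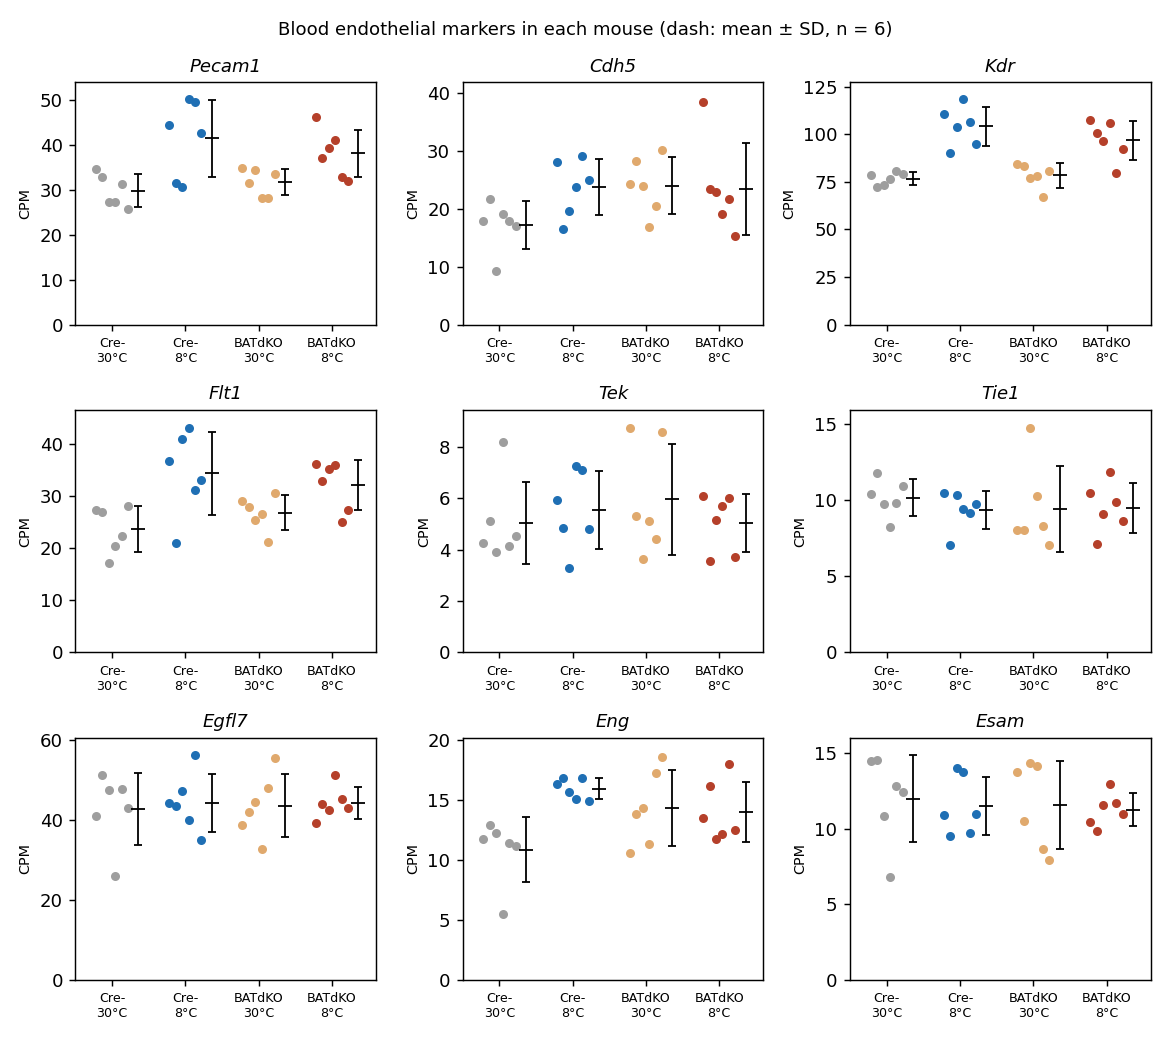
Level in CPM of the 9 endothelial markers, 1 panel per gene with a linear vertical axis from 0, in the 4 groups on the horizontal axis, with 1 point per mouse and a dash with a bar for the mean ± SD of 6 mice. In Cre- mice, the 8°C points of Kdr (90.1 to 118.6 CPM) and Eng (14.9 to 16.9 CPM) lie above all 30°C points, while those of Egfl7, Tie1, Esam and Tek overlap.

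The angiopoietin receptors passed no test. Tek, whose product TIE2 binds angiopoietins, had medians of 4.39 CPM in warm and 5.40 CPM in cold Cre- mice, and of 5.20 and 5.43 CPM in BATdKO mice at 30°C and 8°C. Its log2 differences between temperatures were 0.31 (95% interval -0.14 to 0.75) in Cre- mice and -0.27 (95% interval -0.72 to 0.17) in BATdKO mice. Tie1, which encodes the partner of TIE2 without a well established ligand of its own, had medians of 10.1 and 9.58 CPM in Cre- mice and 8.17 and 9.48 CPM in BATdKO mice at 30°C and 8°C. Its differences between temperatures were -0.16 (95% interval -0.46 to 0.15) and 0.01 (95% interval -0.30 to 0.32). In Cre- mice the interval for Tek is wide enough to hold a change of the size seen for Kdr. In BATdKO mice the upper bound for Tek lies below the estimate for Kdr in those mice. The upper bounds for Tie1 lie below the estimates for the 4 called genes in Cre- mice. The BATdKO interval for Tie1, however, holds the estimate for Kdr in BATdKO mice.

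Among adhesion molecules of endothelial junctions, Pecam1 passed the test in Cre- mice. Pecam1, which encodes the adhesion molecule CD31, ranged from 25.7 to 34.7 CPM at 30°C (median 29.3) and from 30.7 to 50.2 CPM at 8°C (median 43.6). In 4 of 6 cold mice it was above every warm mouse, and m2 and m3 at 8°C overlapped with the warm group. The rise was 0.47, or 1.38-fold (SE 0.12, adjusted p = 0.015 with edgeR), called in all 24 fits without 1 mouse. In BATdKO mice the medians were 32.5 CPM at 30°C and 38.2 CPM at 8°C, a difference of 0.25 (SE 0.12, 95% interval 0.01 to 0.50, adjusted p = 0.26). Cdh5, which encodes the junctional VE-cadherin, ranged from 9.32 to 21.6 CPM in warm Cre- mice (median 17.9) and from 16.6 to 29.1 CPM in cold ones (median 24.4). The difference was 0.49, as large as that of Pecam1, but with an SE of 0.19 it did not pass (adjusted p = 0.14). Single mice decided this, since Cdh5 was called without Cre- m2 at 30°C (0.58, adjusted p = 0.096), without Cre- m2 at 8°C (0.57, adjusted p = 0.077) or without BATdKO m1 at 8°C (0.49, adjusted p = 0.096). In BATdKO mice Cdh5 differed by -0.07 between temperatures (95% interval -0.46 to 0.31). At 30°C it was 0.50 higher in BATdKO than in Cre- mice (95% interval 0.11 to 0.89, adjusted p = 0.35), a difference that did not pass. Esam, which encodes an adhesion molecule of endothelial tight junctions, had medians between 11.0 and 12.6 CPM in all 4 groups, and its differences between temperatures were -0.15 (95% interval -0.45 to 0.15) in Cre- mice and -0.04 (95% interval -0.34 to 0.27) in BATdKO mice.

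Eng, which encodes endoglin, a coreceptor for ligands of the TGF-β and BMP family, was higher in the cold in Cre- mice. It ranged from 5.47 to 13.0 CPM at 30°C (median 11.6) and from 14.9 to 16.9 CPM at 8°C (median 16.1), with no overlap. The rise was 0.46, or 1.37-fold (SE 0.13, 95% interval 0.18 to 0.73, adjusted p = 0.040 with edgeR), and it was called in all 24 fits without 1 mouse. The lowest warm value came from the shallow library m4, where it rested on 4 counts. In BATdKO mice Eng ranged from 10.6 to 18.6 CPM at 30°C (median 14.1) and from 11.8 to 18.0 CPM at 8°C (median 13.0), a difference of -0.01 (95% interval -0.29 to 0.26). The interaction was -0.47 (SE 0.19, 95% interval -0.86 to -0.08, adjusted p = 0.52), which did not pass. Exons of Eng share 61 bases with Fpgs on the other strand, and whether the authors counted by strand is not given in the sources used here.

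Egfl7, which encodes a protein that endothelial cells secrete into the matrix around them, stayed level in its medians, at 45.3 and 43.8 CPM in Cre- mice and 43.2 and 43.5 CPM in BATdKO mice at 30°C and 8°C. Its log2 difference between temperatures was -0.0033 (95% interval -0.25 to 0.25) in Cre- mice and 0.03 (95% interval -0.22 to 0.28) in BATdKO mice. Exons of Egfl7 overlap those of Gm20532 (264 bases) and Mir126a on the same strand and of Agpat2 (64 bases) and Mir126b on the other strand, so that its count is less certain than those of the 8 members without any overlap. The ratio of the counts of Kdr to Egfl7, the most abundant markers, was taken after their values were seen. Its geometric mean was 1.83 in warm and 2.36 in cold Cre- mice. This difference did not pass an exact permutation test over 924 assignments of mice (p = 0.074, adjusted p = 0.24). Warm Cre- mice other than m4 had ratios of 1.41 to 1.92 and cold ones 1.89 to 2.97, while the shallow library m4 had 2.95, from 56 counts of Kdr and 19 of Egfl7. In BATdKO mice the geometric mean was 1.82 at 30°C and 2.19 at 8°C, which did not pass either (p = 0.12, adjusted p = 0.24 with the same permutation test).

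Between genotypes and with all libraries, the 10 genes did not pass the threshold at either temperature. At 8°C 1.82% of all genes tested passed and 0 of the 10, whose log2 differences lay between -0.19 (Tek) and 0.19 (Vegfa), with 0 of them at an unadjusted p under 0.05. At 30°C 0.0% of all genes passed in edgeR, although 1303 had an unadjusted p under 0.05 and DESeq2 called 92. Of the 10 genes, Vegfa, Cdh5 and Eng had an unadjusted p under 0.05 at 30°C, all with higher values in BATdKO mice, at 0.51, 0.50 and 0.30 on the log2 scale. Without both mice 6, 500 genes were called at 30°C and Vegfa was the 1 member among them, while Cdh5 was at 0.42 (adjusted p = 0.37) and Eng at 0.19 (adjusted p = 0.61). At 30°C 0.184% of all genes had groups without overlap and higher values in BATdKO mice, and 0 of the 10 genes had. The interaction of genotype and temperature was called for 0.0961% of all genes tested (12 genes, and 51 in DESeq2) and for 0 of the 10, of which Cdh5 (-0.56) and Eng (-0.47) had an unadjusted p under 0.05. Thus the calls in Cre- mice for Pecam1, Flt1 and Eng that were missing in BATdKO mice do not show that the genotypes differed in their response.

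**Figure D3:**
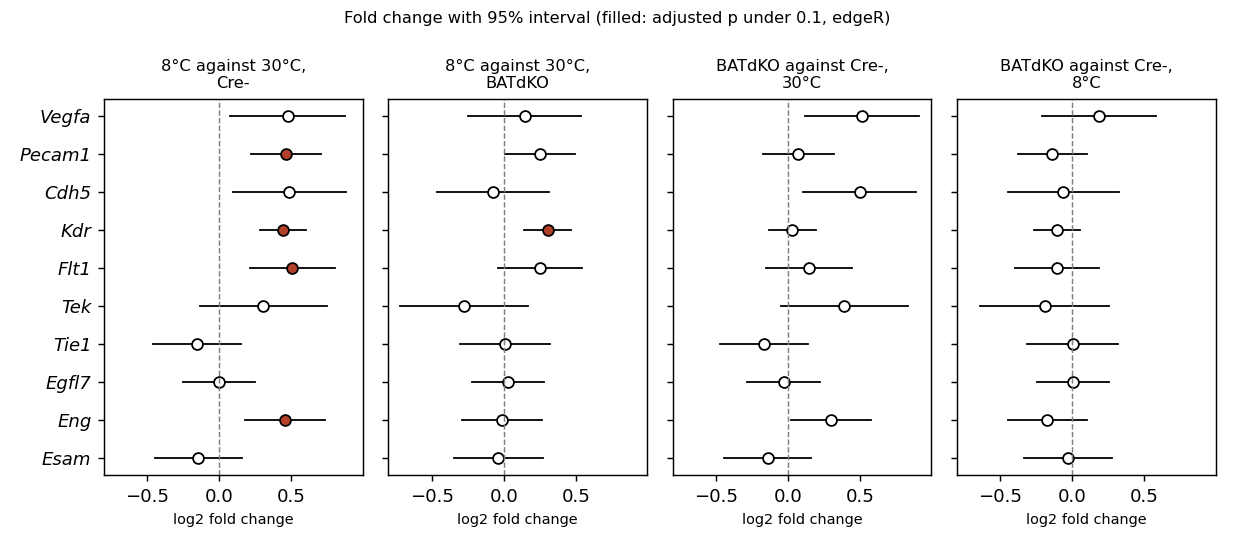
Log2 fold change (horizontal axis) of the 10 genes (vertical axis) in 4 comparisons, with lines for the 95% interval and filled points for an adjusted p under 0.1 in edgeR. Filled points are Pecam1, Kdr, Flt1 and Eng between temperatures in Cre- mice and Kdr in BATdKO mice, and both genotype panels hold open points only.

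Other ligands and receptors of both pathways were read from a list of 11 genes, of which 7 were in the table. Vegfc, Pgf, Angpt2 and Angpt4 were not among its rows and were not analysed here. At 8°C in Cre- mice 1 of the 7 was higher, 1 was lower and 5 did not pass, and in BATdKO mice 1 was higher, 2 were lower and 4 did not pass. The share of all genes tested that passed was 9.15% in Cre- mice and 7.07% in BATdKO mice. Nrp1, which encodes the VEGF coreceptor neuropilin 1, rose by 0.34 on the log2 scale in Cre- mice (SE 0.11, adjusted p = 0.058 with edgeR), from 70.9 ± 11.2 to 90.1 ± 12.7 CPM, and by 0.39 in BATdKO mice (SE 0.11, adjusted p = 0.033), from 65.5 ± 3.97 to 86.1 ± 12.3 CPM (SD, n = 6). Angpt1, which encodes the ligand that activates TIE2, fell by 1.27 on the log2 scale in Cre- mice (SE 0.38, adjusted p = 0.041), from 9.76 ± 4.78 to 3.95 ± 1.51 CPM, and fell by 1.53 in BATdKO mice (SE 0.41, adjusted p = 0.030), from 7.57 ± 5.56 to 2.76 ± 0.84 CPM. Vegfb, a ligand of VEGFR1, fell by 0.53 in BATdKO mice (SE 0.15, adjusted p = 0.044), from 56.5 ± 13.8 to 39.6 ± 9.21 CPM, and its difference in Cre- mice was -0.10 (SE 0.15, adjusted p = 0.80). Single mice decided some of these calls. Nrp1 in Cre- mice was called in 25 of 32 alternatives, Angpt1 in Cre- mice in 30 of 32 (not without Cre- m2 at 30°C, adjusted p = 0.14, or without Cre- m6 at 8°C, adjusted p = 0.11), and Vegfb in BATdKO mice in 29 of 32. Without both mice 6 at 30°C, Vegfb fell short in BATdKO mice between temperatures (-0.39, adjusted p = 0.11) and passed between genotypes at 8°C (-0.44, adjusted p = 0.087).

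Known regulators of Vegfa were read from a list of 8 genes, all in the table. At 8°C 5 were higher in Cre- mice and 4 in BATdKO mice, and 0 were lower. Over all genes tested, 5.57% were higher at 8°C in Cre- mice and 3.76% in BATdKO mice. Ppargc1a, which encodes the coactivator PGC-1α, rose by 1.27 on the log2 scale in Cre- mice (SE 0.16, adjusted p = 3.7e-06 with edgeR), from 16.3 ± 3.22 to 39.3 ± 7.95 CPM, and by 0.95 in BATdKO mice (SE 0.15, adjusted p = 0.00023), from 21.4 ± 3.38 to 41.7 ± 9.86 CPM. Epas1, which encodes HIF-2α and is also high in endothelium, rose by 0.52 in Cre- mice (SE 0.11, adjusted p = 0.0042) and by 0.91 in BATdKO mice (SE 0.11, adjusted p = 6.8e-06), and at 8°C it was 0.41 higher in BATdKO than in Cre- mice (SE 0.11, adjusted p = 0.071). Hif1a rose by 0.46 in Cre- mice (SE 0.10, adjusted p = 0.0067) and passed no test in BATdKO mice. Egln1 and Egln3, which encode prolyl hydroxylases that mark hypoxia-inducible factors for destruction and are themselves hypoxia targets, rose in both genotypes, Egln1 by 1.40 and 0.84 and Egln3 by 0.93 and 1.29 in Cre- and BATdKO mice. At 8°C the higher level of Epas1 in BATdKO mice was called in 25 of 32 alternatives, and without BATdKO m1 it was 0.29 (adjusted p = 0.17). The interaction was called for 0 of the 8 genes, beside 0.0961% of all genes tested. Without both mice 6, Ppargc1a was 0.58 higher in BATdKO than in Cre- mice at 30°C (adjusted p = 0.051 with edgeR). The summed level of the 8 genes had medians of 128 and 238 CPM in Cre- mice and of 151 and 248 CPM in BATdKO mice at 30°C and 8°C. This sum includes Egln1 and Egln3, so it does not measure activation of Vegfa. Egln1 alone had means of 21.7 and 60.2 CPM in Cre- mice and of 26.0 and 46.8 CPM in BATdKO mice.

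**Figure D4:**
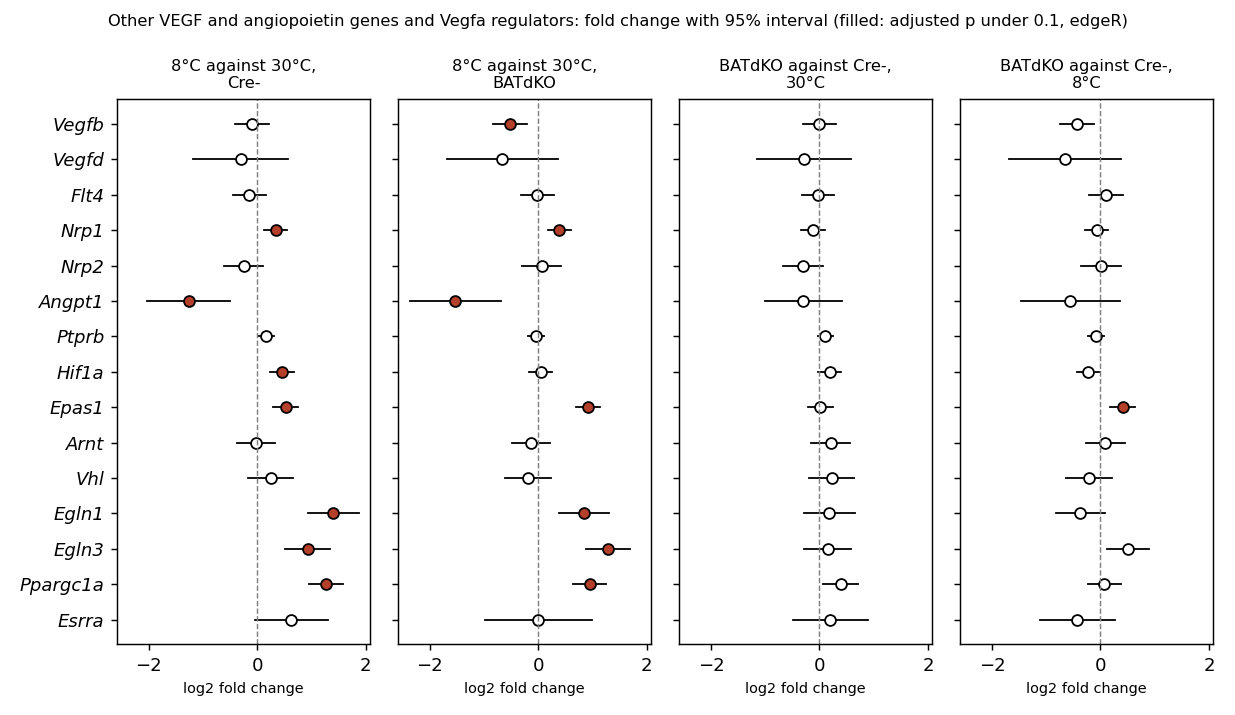
Log2 fold change (horizontal axis) of 7 other VEGF and angiopoietin genes and 8 regulators of Vegfa (vertical axis) in 4 comparisons, with lines for the 95% interval and filled points for an adjusted p under 0.1 in edgeR. Ppargc1a, Epas1, Egln1, Egln3 and Nrp1 lie to the right and Angpt1 to the left in both temperature panels, and Epas1 (0.41) is the filled point between genotypes at 8°C.

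Other blood endothelial genes did not all move with the 4 called markers. Of a further list of 28, 20 were in the table. At 8°C 2 rose, 2 fell and 16 did not pass in Cre- mice, and 2 rose, 1 fell and 17 did not pass in BATdKO mice, with medians of -0.05 and 0.13 on the log2 scale. These counts stand beside 9.15% and 7.07% of all genes tested that passed in Cre- and BATdKO mice. Emcn, which encodes the sialomucin endomucin of capillary and venous endothelium, rose by 0.59 in Cre- mice (SE 0.15, adjusted p = 0.019 with edgeR) and by 1.15 in BATdKO mice (SE 0.16, adjusted p = 4.6e-05), with group means of 4.06, 6.10, 2.93 and 6.74 CPM in Cre- 30°C, Cre- 8°C, BATdKO 30°C and BATdKO 8°C. Adgrl4, which encodes an adhesion receptor of endothelium, rose by 0.65 in Cre- mice (SE 0.12, adjusted p = 0.00047), from 16.3 ± 1.83 to 26.0 ± 4.01 CPM. Mmrn2, which encodes a matrix protein of the vessel wall, rose by 0.35 in BATdKO mice (SE 0.12, adjusted p = 0.096). Aqp1, which encodes a water channel of endothelium and red cells, fell by 0.71 in Cre- mice (SE 0.11, adjusted p = 0.0001), from 106 ± 20.2 to 65.0 ± 3.59 CPM, and fell by 0.38 in BATdKO mice (SE 0.11, adjusted p = 0.048). Cd34, which marks endothelium and also stromal progenitors, fell by 0.93 in Cre- mice (SE 0.25, adjusted p = 0.024). Plvap (-0.06 and 0.05), Gpihbp1 (-0.13 and -0.01) and Cldn5 (-0.26 and -0.72), of fenestrae, of capillary lipoprotein lipase binding and of tight junctions, did not pass in Cre- or BATdKO mice. Between genotypes, 0 of the 20 were called at either temperature, beside 1.82% of all genes tested at 8°C and 0.0% at 30°C. Emcn in both genotypes and Adgrl4 and Aqp1 in Cre- mice were called under all 32 alternatives, whereas Mmrn2 was called in 13. Cd34 was not called without Cre- m1 at 30°C (-0.58, adjusted p = 0.14). Without both mice 6, Aqp1 (-0.28, adjusted p = 0.12) and Mmrn2 (0.31, adjusted p = 0.21) were no longer called in BATdKO mice, Adgrl4 (0.41, adjusted p = 0.037) and Icam2 (0.54, adjusted p = 0.066) were, and Aqp1 was lower in BATdKO than in Cre- mice at 30°C (-0.47, adjusted p = 0.011).

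Secreted vessel regulators were tested for 7 of a list of 11. Pdgfb, a growth factor by which endothelium recruits pericytes, rose by 1.01 in Cre- mice (SE 0.21, adjusted p = 0.0024 with edgeR), from 4.01 ± 1.94 to 8.97 ± 2.22 CPM. Cxcl12, a chemokine of stromal and endothelial cells, rose by 0.41 in Cre- mice (SE 0.09, adjusted p = 0.0029) and by 0.49 in BATdKO mice (SE 0.09, adjusted p = 0.00063). Angptl4, an inhibitor of lipoprotein lipase, fell by 1.28 in Cre- mice (SE 0.19, adjusted p = 4.7e-05) and fell by 0.67 in BATdKO mice (SE 0.18, adjusted p = 0.032), and at 8°C it was 0.76 higher in BATdKO than in Cre- mice (SE 0.19, adjusted p = 0.043). This call held in 30 of 32 alternatives and was lost without Cre- m5 at 8°C (0.72) or without BATdKO m1 at 8°C (0.69), each at an adjusted p of 0.10. Lep, the adipocyte hormone leptin, was also lower in the cold in both genotypes, with at most 1.01 CPM in Cre- mice at 8°C.

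Markers of other cell types moved with temperature as well. Summed over the 9 endothelial markers, the median level was 235 CPM (198 to 249) in warm and 297 CPM (241 to 321) in cold Cre- mice, and 252 CPM (223 to 273) and 274 CPM (246 to 308) in BATdKO mice. The sum of the 20 further blood endothelial genes did not rise. Its medians were 290 and 271 CPM in Cre- mice and 266 and 263 CPM in BATdKO mice at 30°C and 8°C. The 4 red blood cell genes in the table, all of them haemoglobin genes, rose in both genotypes, with medians of 3596 and 5274 CPM in Cre- mice and of 3520 and 5305 CPM in BATdKO mice at 30°C and 8°C. Reads of Hba-a1 and Hba-a2 cannot be assigned with certainty, since these copies are nearly identical. Of the 10 mural cell genes tested, Rgs5 rose (0.58, adjusted p = 0.029 with edgeR) and Mcam, which endothelium also expresses, fell by 1.04 in Cre- mice (adjusted p = 0.037), and 0 were called in BATdKO mice. For brown adipocytes, Ucp1, Dio2 and Elovl3 rose and Adipoq fell in both genotypes, and 5 of the 9 genes did not pass. The call for Adipoq in Cre- mice held in 27 of 32 alternatives, and its value moved from -0.58 to -0.34 without Cre- m1 at 30°C (adjusted p = 0.21). Of the lymphatic (4 tested), macrophage (7), platelet (2) and skeletal muscle (6) genes 0 were called in either genotype, and of 7 fibroblast and progenitor genes Pdgfra and Col3a1 fell in BATdKO mice. Over all genes tested, 9.15% were called in Cre- mice and 7.07% in BATdKO mice. Summed skeletal muscle genes ran from 0.78 CPM (BATdKO m6 at 8°C) to 7253 CPM (Cre- m3 at 30°C) over the libraries. Cre- m3 at 30°C also had the lowest sum of brown adipocyte genes, at 862 CPM. All defining markers of endothelium were above 0 counts in every library. Without both mice 6, the brown adipocyte genes Ucp1 (1.67, adjusted p = 0.00072), Cidea (1.09, adjusted p = 0.0039), Fabp4 (1.87, adjusted p = 0.007), Dio2 (2.00, adjusted p = 0.037) and Plin1 (0.72, adjusted p = 0.064) were higher in BATdKO than in Cre- mice at 30°C, as Vegfa was. In that fit Fabp4 (1.17, adjusted p = 0.041), Cidea (0.64, adjusted p = 0.041) and Plin1 (0.54, adjusted p = 0.098) were also higher at 8°C in Cre- mice, again as Vegfa was, and the stromal gene Dcn was lower (-0.35, adjusted p = 0.057). Cidea was lower at 8°C in BATdKO mice (-0.83, adjusted p = 0.012), and the interaction was called for Ucp1 (-1.55, adjusted p = 0.065) and Cidea (-1.48, adjusted p = 0.021). In the same fit 3 skeletal muscle genes, Ckm, Mylpf and Tnni2, were lower at 8°C in Cre- mice and lower in BATdKO than in Cre- mice at 30°C, and so were the mural genes Acta2 and Des between genotypes at 30°C. Mcam was not called without Cre- m1 at 30°C (-0.57, adjusted p = 0.23), and Pdgfra and Col3a1 were called in 22 and 16 of 32 alternatives. The part of these cell types in the endothelial and Vegfa results was not tested.

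**Figure D5:**
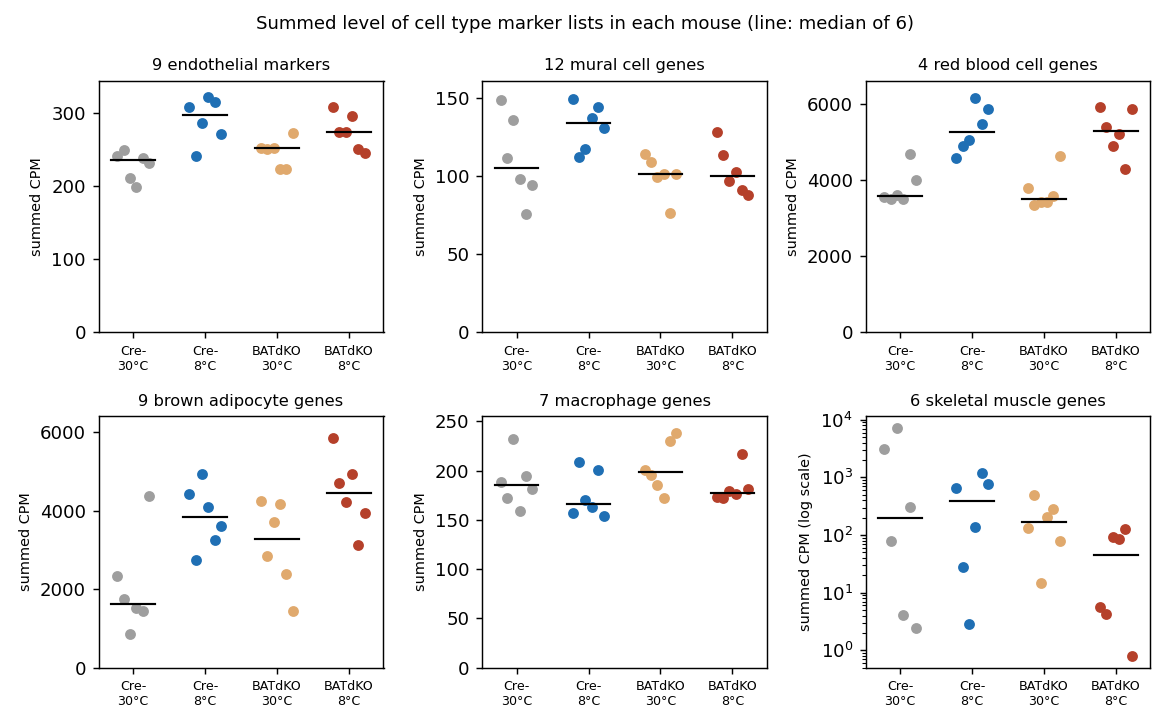
Summed level in CPM of 6 lists of cell type genes, 1 panel per list, in the 4 groups on the horizontal axis, with 1 point per mouse and a line for the median of 6 mice. Vertical axes are linear except for skeletal muscle, which is on a log scale. In Cre- mice the 8°C medians exceed the 30°C medians for the 9 endothelial markers (297 against 235 CPM) and red blood cell genes (5274 against 3596 CPM). They also do for brown adipocyte (3847 against 1637 CPM), mural cell (134 against 105 CPM) and skeletal muscle genes (394 against 196 CPM), but not for macrophage genes (167 against 185 CPM). In BATdKO mice they are higher for endothelial markers, red blood cell genes and brown adipocyte genes only. Cre- m6 at 30°C has 4380 CPM of brown adipocyte genes.

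Genes other than the 10 described here were ranked by their likeness to Vegfa and to the mean of the 9 markers over the 24 libraries. Ranked by Pearson correlation of log2 CPM among 8538 genes with a mean of at least 5 CPM, the first 5 for Vegfa were Ptges2 (r = 0.91), Dnajc15 (0.89), Cluh (0.88), Pdk4 (0.87) and Grpel1 (0.87). Those for the mean of the 9 markers were Pdha1 (0.86), Sco1 (0.85), Sh3bgrl (0.85), Akap12 (0.83) and Btnl9 (0.83). These values describe the ranking and share the same libraries, groups and depths. With group means removed, they were 0.81 to 0.86 for Vegfa and 0.73 to 0.83 for the markers. Among the 10 genes themselves, Kdr was closest to Flt1 (r = 0.81) and to Pecam1 (0.81), Tie1 was closest to Esam (0.66) and Egfl7 to Eng (0.67), while Kdr and Egfl7 had a value of 0.07. Vegfa had its highest values among the 10 genes with Cdh5 (0.68) and Flt1 (0.66). The 5 genes ranked first for it were the highest of 8538, so their values cannot be set against these. Values for Tek, Tie1, Esam and Eng rest on low counts.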

How the data were processed

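BAT RNA of 24 mice in 4 groups of 6 was measured with a 3′ tag kit. According to the paper's methods, the authors used BBDuk to trim the forward reads, STAR for alignment to GRCm38 and Rsubread for gene counts, and the deposited values are raw counts, not normalized. The annotation release and the strand setting are not given in the sources used here. The table holds 12615 genes (12608 with a symbol) and library totals of 699703 to 11527643, and each column was matched to a sample by the name in its description. The study removed outliers that its text does not name, so all 24 libraries were used. Nothing in the sources pairs mice. The tests set a difference between groups against the spread between mice within groups. Between temperatures, any difference of library series is part of that difference.

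Counts were fitted in R 4.3.3 with edgeR 4.0.16 (limma 3.58.1) by the quasi-likelihood test, with TMM scaling, filterByExpr (12485 genes kept, 130 removed, all 10 members kept), a mean per group and all 24 libraries. Adjustment was by Benjamini and Hochberg over every gene tested, with calls at an adjusted p under 0.1, the threshold in the study's methods. The study's results define its sets of changed genes at a p under 0.05 instead. A standard error is the size of the log2 fold change over the root of its F statistic. CPM values use the TMM library sizes. The main edgeR fit and the DESeq2 fit were tested on simulated data, for the comparison of temperatures in Cre- mice only. Alternatives were DESeq2 1.42.0, RLE and upper-quartile scaling, no filter, a mean count of at least 10, robust dispersion, the groups compared alone, leaving out both mice 6 at 30°C, and leaving out each mouse.

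All 10 members are described, with the called genes of each list and a fixed set of pathway and endothelial genes. Also given are the 5 genes outside the members most correlated with Vegfa and with the marker mean. Members and lists were chosen with earlier results of these data known. Overlaps of exons are from the GENCODE annotation of GRCm38, and promoter windows are from RefSeq, with entries for 7 of the 10 members.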

Additional observations from a re-analysis of the deposited data

Results flagged for a closer look

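Each of the 10 genes was examined in each of the 4 groups for a mouse far from the other 5 of its group (Dixon's test at 95%). Of the 40 groups of 6 values looked at, 4 held such a mouse, where chance gives about 1 in 20. Vegfa in Cre- mice at 30°C stood apart through m6, at 135.8 CPM. Cdh5 in BATdKO mice at 8°C stood apart through m1, at 38.3 CPM. Tek and Eng in Cre- mice at 30°C both stood apart through m4, at 8.20 CPM for Tek and 5.47 CPM for Eng, in opposite directions. That library held 699703 counts in all, of which 6 were for Tek and 4 for Eng. Cre- m6 at 30°C is the library whose Tbl1xr1 and Tbl1x levels lay with the other labelled genotype.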

How the results depend on the processing

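Of 390 values of the 10 genes under alternatives other than leaving out 1 mouse, 381 kept their direction and their side of the threshold, 2 gained a call (both Vegfa, without both mice 6) and 7 turned direction. The 7 were uncalled differences near 0. For Tie1 between genotypes at 8°C the value was -0.000365 in DESeq2, -0.0018 with no filter, -0.0085 with the groups compared alone and -0.0040 without both mice 6. For Tie1 between temperatures in BATdKO mice it was -0.012 with upper-quartile scaling and -0.065 without both mice 6, and for Eng it was 0.073 without both mice 6. The count of genes called between genotypes at 8°C was 477 with the groups compared alone. Between genotypes at 30°C it was 92 in DESeq2 and 500 without both mice 6, with 1 of the 10 genes among the latter. For the interaction it was 51 in DESeq2, 21 with robust dispersion and 44 without both mice 6. Leaving out 1 mouse gave 791 to 1343 genes between temperatures in Cre- mice, 574 to 1069 in BATdKO mice, 138 to 276 between genotypes at 8°C, 0 to 369 at 30°C and 7 to 37 for the interaction. Of the 10 genes it called 3 to 6 between temperatures in Cre- mice, 1 in BATdKO mice and 0 to 1 between genotypes at 30°C. Leaving out 1 mouse also turned the direction of small uncalled values. Egfl7 ran from -0.084 to 0.060 (Cre-) and -0.046 to 0.11 (BATdKO) between temperatures, from -0.053 to 0.086 (8°C) and -0.12 to 0.052 (30°C) between genotypes, and from -0.045 to 0.12 in the interaction. Between temperatures in BATdKO mice Cdh5 ran from -0.23 to 0.013, Tie1 from -0.075 to 0.16, Eng from -0.10 to 0.071 and Esam from -0.13 to 0.041. Between genotypes at 8°C Cdh5 ran from -0.21 to 0.030, Tie1 from -0.082 to 0.090 and Esam from -0.077 to 0.035. The cause of these changes was not tested. No paired analysis was possible because the mouse numbers pair no mice between groups. Of 50 calls among the listed genes other than the 10, 38 held in every alternative run. Low counts limit Tek, Tie1, Esam and Eng most.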
